A study of Mus musculus with 6 samples.

Results

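Pancreatic islets read hormones, fatty acids and nerve signals through G-protein-coupled receptors. The 10 receptor genes described here were taken by symbol from the 19342 genes counted by RNA-seq: Glp1r, Gipr, Gcgr, Ffar1, Gpr119, Adra2a, Chrm3, Galr1, Sstr2 and Sstr3. They were followed in islets of FXR+/+ and FXR-/- mice, to ask how their messages stand when the bile acid receptor FXR, encoded by Nr1h4, is missing. All 10 passed the filter on low counts that left 14619 genes for testing.

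Islets came from mice 3 months old, freed from the pancreas with collagenase P. The FXR-/- animals were FXR knockout mice on a C57Bl/6 background and the controls were wild type; how the allele was made is not given in the sources used here. Each genotype had 3 libraries, namely female 1, male 1 and male 2, and the sources do not say how many animals went into each. P-values therefore measure the spread between these libraries, which may be partly technical.

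Receptors that couple to Gs, among them those for GLP-1, GIP and glucagon and the lipid receptor GPR119, raise cyclic AMP and amplify the release of insulin at high glucose. FFAR1, the receptor for long-chain fatty acids, and the M3 muscarinic receptor act mainly through Gq and calcium. The α2A-adrenergic receptor, the galanin receptor and the somatostatin receptors couple to Gi or Go and restrain secretion. In whole islets, a lower message per cell and fewer cells that carry it cannot be told apart.

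Library totals ran from 20629306 to 30139235 counts. Nr1h4 itself was counted 333, 274 and 386 times in the wild-type libraries and 140, 145 and 138 times in the knockouts, so it was lower in every library labelled as knockout, with a residual message. The defining beta cell genes were present in every library, and the 2 insulin genes took 17.5% to 23.9% of all counts. Acinar genes, which belong to the exocrine pancreas, took 4.59% to 12.9% of counts in FXR+/+ and 6.57% to 13.3% in FXR-/- libraries, most in male 1 of both genotypes. The summed level of 7 endothelial markers was 406 to 510 CPM with FXR and 528 to 821 CPM without it, and the genotypes did not overlap. CPM is the usual scaling of counts to library size, here with sizes corrected by trimmed means (TMM).

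None of the 10 receptors changed beyond the spread between libraries after adjustment over all genes. In edgeR's quasi-likelihood test their adjusted p ran from 0.323 for Ffar1 to 0.797 for Gpr119, and no gene in the table passed (0% of 14619). At an unadjusted p under 0.05, Ffar1 and Adra2a were higher in FXR-/- islets and Galr1 was lower. Those 2 higher members stand against 6.18% of all genes tested that were called in that direction, and the 1 lower member against 4.15%. With the replicate numbers as a block 0.157% of genes passed an adjusted p under 0.05, and with DESeq2 1.29% did, but no receptor was among them in either. The median log2 fold change was 0.096 over the receptors and 0.00844 over all genes tested.

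**Figure D1:**
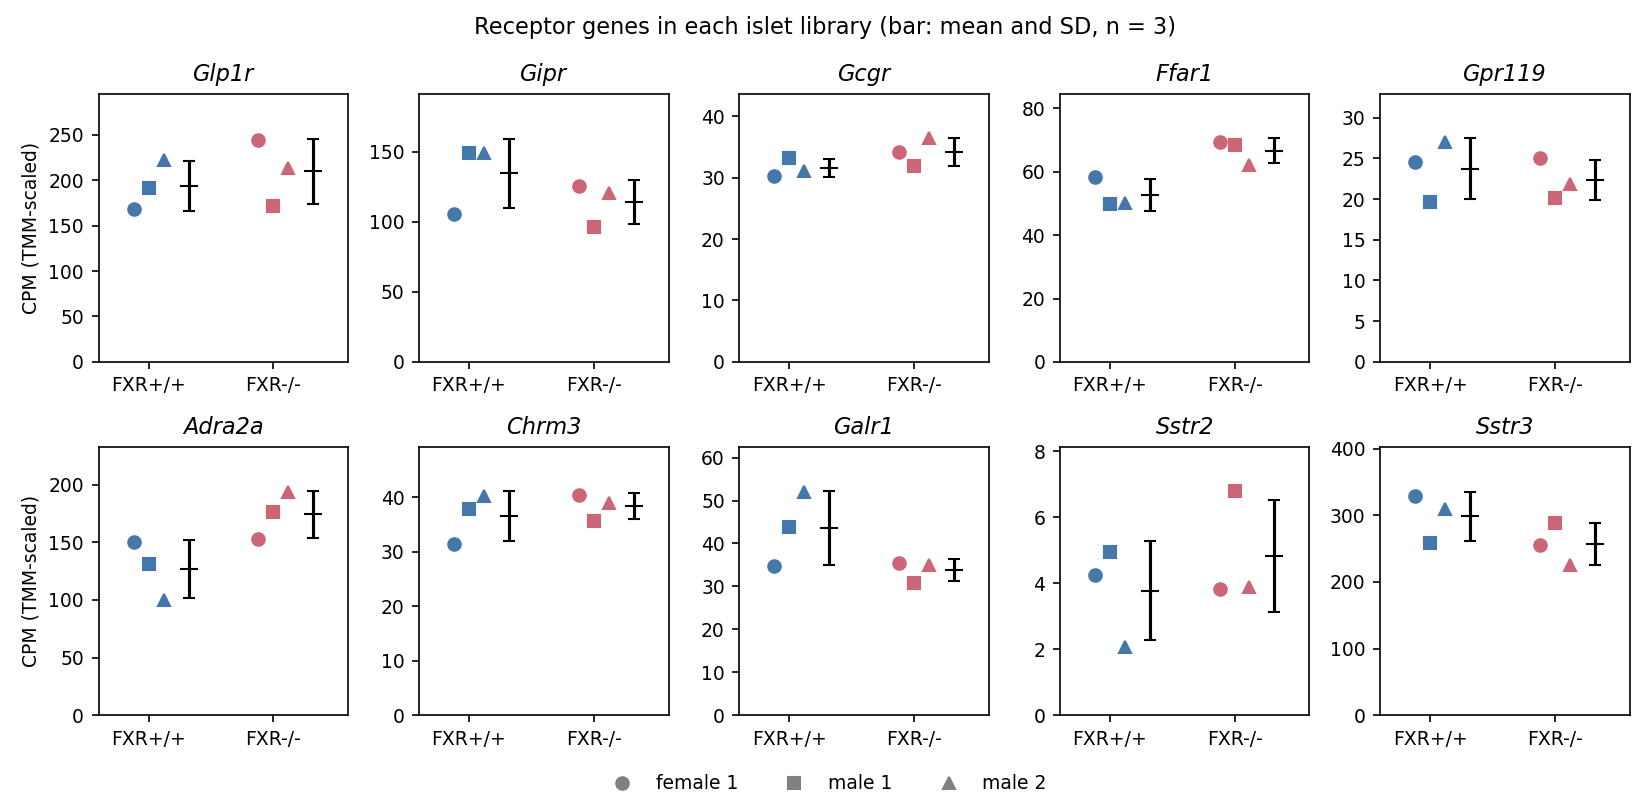
CPM of each receptor gene (vertical axes, each from 0) in the FXR+/+ and FXR-/- libraries (horizontal axes), with symbols for the library and black bars for the mean and SD of 3 libraries. Only Ffar1 and Adra2a have all 3 FXR-/- libraries above all 3 FXR+/+ libraries.

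Levels were first set on one scale, as CPM from gene counts per kilobase of the exons listed for the gene. The gene counts also hold reads outside those exons. Glp1r was the highest of the 10 in FXR+/+ islets, at 131 ± 18.5 (SD, n = 3) CPM per kilobase, and its lowest library was above the highest of every other receptor. Next came Sstr3 at 76.0 ± 9.31, Gipr at 75.2 ± 13.8 and Ffar1 at 58.4 ± 5.5, each overlapping its neighbour in range. Adra2a stood apart on both sides at 33.5 ± 6.6. Gcgr at 17.4 ± 0.818, Galr1 at 15.1 ± 3.00, Chrm3 at 11.5 ± 1.44 and Gpr119 at 10.5 ± 1.66 formed a run in which each range met the next. Sstr2 was lowest at 2.28 ± 0.909 CPM per kilobase, below the range of Gpr119.

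In FXR-/- islets the order was nearly the same on this scale. Glp1r stayed first at 142 ± 24.4 CPM per kilobase, while Ffar1 moved from the fourth to the second place at 73.8 ± 4.33. Sstr3 at 65.3 ± 7.88 and Gipr at 63.8 ± 8.83 followed. Both overlapped Ffar1 in range, with 68.9 to 76.8 for Ffar1, 57.4 to 73.2 for Sstr3 and 53.8 to 70.4 for Gipr. The change of place was thus within the spread between libraries.

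The order leans on the gene models and on the counts used. The deposited exons of Glp1r end at position 30936510 of chromosome 17 (GRCm38) and hold 1480 bases, whereas the merged GENCODE vM21 exons reach 30940791 and hold 5811. With the GENCODE length, Glp1r stood at 33.4 CPM per kilobase, the third place, and Ffar1 (903 against 4175 bases) at 12.6, the sixth, with Sstr3 first at 69.1. With exon counts in place of gene counts Glp1r took place 5 at 18.5, Gipr place 4 at 22.1 and Gcgr place 9 at 4.37. The exon table held 13.1%, 29.9% and 25.2% of their gene counts, against 100% for the single-exon genes Ffar1 and Adra2a. Differences between genotypes for 1 gene do not use the length.

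**Figure D2:**
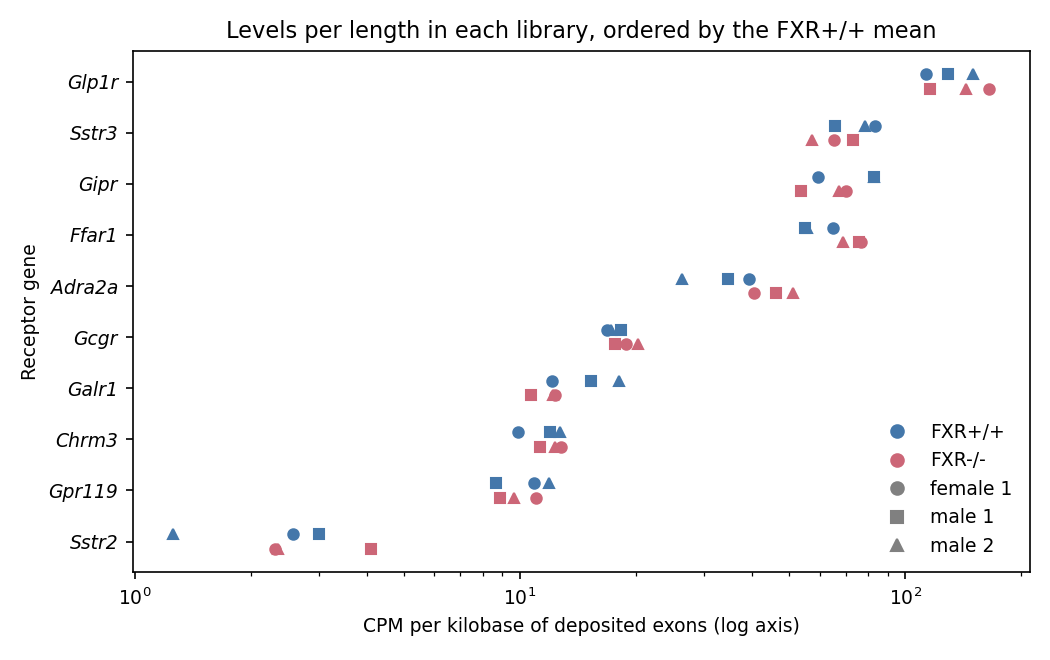
CPM from gene counts per kilobase of deposited exons (log axis) for each receptor gene, ordered by the FXR+/+ mean, with 1 symbol for each library. The 10 genes span from 1.26 for Sstr2 in FXR+/+ male 2 to 165 for Glp1r in FXR-/- female 1.

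The incretin receptors came first among the comparisons. Glp1r, the GLP-1 receptor of beta and delta cells (chromosome 17, 30901817 to 30940791, plus strand, GRCm38), had 168, 191 and 222 CPM in FXR+/+ female 1, male 1 and male 2. It had 244, 172 and 213 CPM in the FXR-/- libraries in the same order. The genotypes overlapped, with the 2 female libraries at opposite ends. The log2 fold change of FXR-/- over FXR+/+ was 0.11 ± 0.16 (SE, 95% interval -0.25 to 0.48), with an adjusted p of 0.792 in edgeR.

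Gipr, the receptor for the gut hormone GIP (chromosome 7, 19156061 to 19166127, minus strand), had 106, 149 and 149 CPM in FXR+/+ libraries. In FXR-/- libraries it had 126, 96.4 and 121 CPM. Both FXR-/- male libraries lay below both FXR+/+ male libraries, whereas the FXR-/- female lay above the FXR+/+ female. Its log2 fold change was -0.22 ± 0.16 (SE) over all libraries, with an adjusted p of 0.594 in edgeR. In the 2 male pairs alone the log2 fold change was -0.46 ± 0.13 with an unadjusted p of 0.0126 and an adjusted p of 0.556 by the same tool. Without FXR-/- male 1 it was -0.07 with an unadjusted p of 0.635.

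Gcgr, the glucagon receptor (chromosome 11, 120530699 to 120538986, plus strand), varied little between libraries. It had 30.3, 33.2 and 31.1 CPM in FXR+/+ and 34.1, 31.9 and 36.4 CPM in FXR-/- libraries. The ranges overlapped, and the log2 fold change of 0.12 ± 0.09 (SE) had a 95% interval from -0.09 to 0.33.

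Among the lipid receptors, Ffar1 had the lowest p of the 10. Ffar1 (chromosome 7, 30857390 to 30861564, minus strand) has its coding sequence in 1 exon and is the receptor through which long-chain fatty acids strengthen glucose-stimulated insulin secretion. It had 58.5, 49.7 and 50.1 CPM in FXR+/+ and 69.3, 68.5 and 62.2 CPM in FXR-/- libraries. Every FXR-/- library lay above every FXR+/+ library, and FXR-/- was higher in all 3 same-numbered pairs, by ratios of 1.19, 1.38 and 1.24.

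The log2 fold change of Ffar1 was 0.34 ± 0.08 (SE, 95% interval 0.15 to 0.53), a ratio of 1.27. Its unadjusted p of 0.0033 was the 149th lowest of 14619, and its adjusted p was 0.323 in edgeR and 0.071 in DESeq2. An exact two-sided permutation test of the CPM gave p = 0.1, the smallest that 3 against 3 libraries allow. The unadjusted p stayed under 0.05 in all 20 other settings tried, with the log2 fold change between 0.25 and 0.39. These settings are not independent, and males alone and leaving out either female library are nearly the same fit. A difference without overlap, FXR-/- higher, was found for 8.02% of all genes tested, and FXR-/- lower for 7.37%. With libraries scaled by size alone, both Ffar1 and Adra2a overlapped between genotypes.

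FXR binds DNA as a partner of RXR, classically at an inverted repeat of the half-site AGGTCA with 1 base between. The letters AGGTCANTGACCT and the half-site AGGTCA, read on both strands, were searched in the 250 bases before the RefSeq starts of the receptor genes (GRCm38.p6). Of these, 8 genes with 9 windows had an entry, and Gipr and Galr1 had none. The windows of Adra2a and Sstr3 held 0 bases upstream of the GENCODE starts. Neither pattern was found in any of the 9 windows, and they occur in 0.00609% and 14% of all 32851 such windows. This says only that those letters are not in these windows. The part of the Ffar1 window outside its GENCODE exons is shown because Ffar1 had the lowest p. It covers chr7:30861565-30861720 on the minus strand and holds neither pattern, so no letter is in capitals.
Ffar1: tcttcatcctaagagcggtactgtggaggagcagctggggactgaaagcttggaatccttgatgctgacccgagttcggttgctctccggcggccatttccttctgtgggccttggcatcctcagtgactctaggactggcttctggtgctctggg

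Gpr119, a Gs-coupled receptor for lipid amides (chromosome X, 48667979 to 48674478, minus strand), had 24.6, 19.6 and 27 CPM in FXR+/+ and 25, 20.1 and 21.9 CPM in FXR-/- libraries. The ranges overlapped almost wholly. Its log2 fold change was -0.09 ± 0.13 (SE, 95% interval -0.41 to 0.22).

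Adra2a encodes the α2A-adrenergic receptor, through which noradrenaline lowers cyclic AMP and insulin release (chromosome 19, 54044151 to 54048982, plus strand). It had 150, 131 and 100 CPM in FXR+/+ and 153, 176 and 194 CPM in FXR-/- libraries. The groups did not overlap, but the female pair was nearly level, with ratios of 1.02, 1.34 and 1.93 in the pairs female 1, male 1 and male 2.

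Over all libraries the log2 fold change of Adra2a was 0.46 ± 0.16 (SE, 95% interval 0.09 to 0.83), a ratio of 1.38, with an unadjusted p of 0.0215 and an adjusted p of 0.45 in edgeR. The exact permutation p was 0.1. Its value rested partly on the male 2 pair. Without FXR-/- male 2 the log2 fold change was 0.36 with an unadjusted p of 0.0792, and without FXR+/+ male 2 it was 0.29 with an unadjusted p of 0.0486.

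Galr1 encodes a receptor for galanin, a neuropeptide that silences beta cells. On chromosome 18 (82392380 to 82406777, minus strand), it had 34.7, 43.9 and 51.9 CPM in FXR+/+ and 35.4, 30.8 and 35 CPM in FXR-/- libraries. The FXR-/- female slightly exceeded the FXR+/+ female, and both FXR-/- male libraries lay below both FXR+/+ male libraries. The log2 fold change was -0.35 ± 0.14 (SE, 95% interval -0.68 to -0.02), with an unadjusted p of 0.0387 and an adjusted p of 0.469 in edgeR.

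Galr1 was the least stable of the 3 unadjusted calls. With a term for acinar RNA its log2 fold change was -0.25 with an unadjusted p of 0.0894, against 0.32 and 0.37 for Ffar1 and Adra2a, whose unadjusted p stayed under 0.05. Leaving out any 1 of the 4 male libraries gave an unadjusted p of 0.062 (FXR+/+ male 1), 0.118 (FXR+/+ male 2), 0.13 (FXR-/- male 1) or 0.0972 (FXR-/- male 2). Leaving out either female library gave a log2 fold change of -0.54, in nearly the same fit as males alone.

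Sstr3 and Sstr2 encode receptors for somatostatin, the hormone of delta cells. Sstr3 (chromosome 15, 78537008 to 78544685, minus strand) had 329, 258 and 309 CPM in FXR+/+ and 256, 288 and 226 CPM in FXR-/- libraries, with overlap. Its log2 fold change was -0.22 ± 0.13 (SE), with an adjusted p of 0.545 in edgeR. Without FXR-/- male 1 it was -0.35 with an unadjusted p of 0.0268, and without FXR+/+ male 1 it was -0.31 with an unadjusted p of 0.0464. Leaving out either female library gave -0.14, FXR-/- male 2 -0.14 and FXR+/+ male 2 -0.16, with unadjusted p of 0.285 to 0.413.

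Sstr2 (chromosome 11, 113619342 to 113626028, plus strand) was the shallowest, at 66 to 129 counts a library. It had 4.26, 4.96 and 2.08 CPM in FXR+/+ and 3.81, 6.78 and 3.87 CPM in FXR-/- libraries. Its log2 fold change of 0.36 ± 0.37 (SE) had an interval from -0.52 to 1.23, the widest of the 10. With the replicate block the SE was 0.22 around a log2 fold change of 0.38. Sstr2 lies inside the span of Slc39a11, on the opposite strand, and shares no exon base with it. The use of strand in counting is not given in the sources used here.

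Of the 8 receptors with a window, only Sstr2 held the cyclic AMP response element TGACGTCA in it, which is present in 1.55% of all windows. Its match starts at position -58 relative to the RefSeq start. The window, chr11:113619077-113619326 on the plus strand, is shown for that reason, with the element in capitals.
Sstr2: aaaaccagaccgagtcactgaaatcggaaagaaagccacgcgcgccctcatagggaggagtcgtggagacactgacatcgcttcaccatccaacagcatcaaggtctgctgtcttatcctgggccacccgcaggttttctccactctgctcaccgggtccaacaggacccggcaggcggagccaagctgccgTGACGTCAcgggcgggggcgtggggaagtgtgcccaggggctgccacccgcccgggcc

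Chrm3 encodes the M3 receptor, by which vagal acetylcholine increases insulin secretion (chromosome 13, 9875486 to 10360847, minus strand). It had 31.4, 37.9 and 40.2 CPM in FXR+/+ and 40.5, 35.7 and 39.0 CPM in FXR-/- libraries. The ranges overlapped. Its log2 fold change was 0.08 ± 0.11 (SE, 95% interval -0.18 to 0.34).

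**Figure D3:**
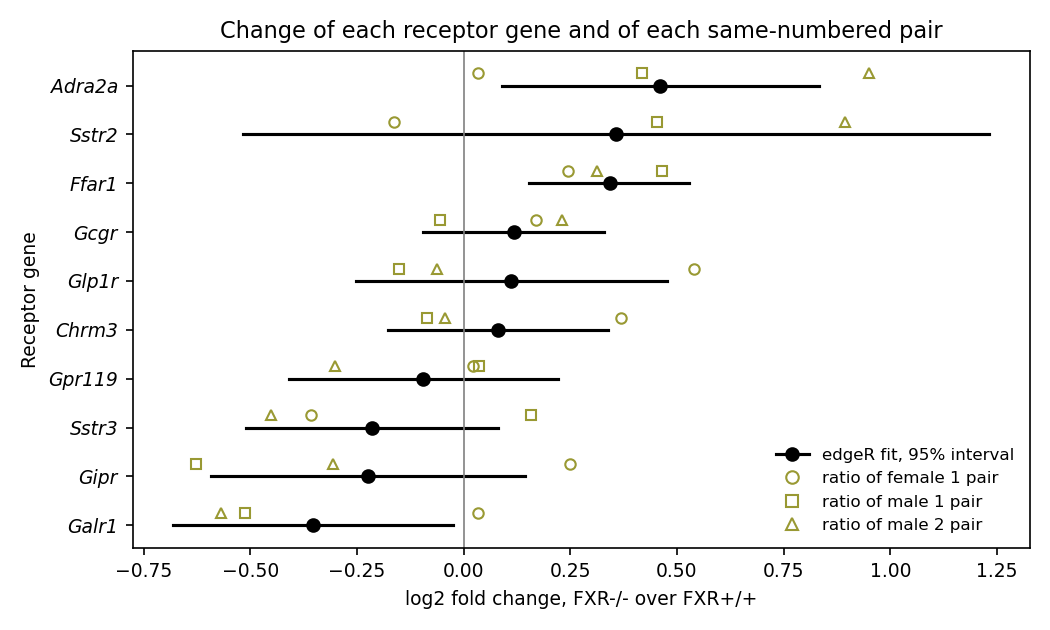
Log2 fold change of FXR-/- over FXR+/+ for each receptor gene. Black points and bars are the edgeR estimate with its 95% interval, and open symbols are the CPM ratios of the 3 same-numbered pairs. The intervals of Ffar1, Adra2a and Galr1 exclude 0 before adjustment, and the female pair of Glp1r, Gipr, Chrm3 and Galr1 lies to the right of both male pairs.

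The same-numbered pairs did not move alike. In an edgeR fit with an interaction of genotype and sex, 4 of the 10 receptors had an unadjusted p under 0.05, against 1.48% of all genes tested. The effect of genotype in males minus that in females was -0.64 ± 0.25 (SE) on the log2 scale for Glp1r, with an unadjusted p of 0.0433. It was -0.71 ± 0.23 for Gipr (unadjusted p of 0.02), -0.58 ± 0.23 for Galr1 (unadjusted p of 0.0447) and 0.64 ± 0.26 for Adra2a (unadjusted p of 0.0495). Adjusted over all genes, every receptor's p was 1.

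The female effect rests on 1 library of each genotype, so sex and the single library cannot be told apart. Leaving out single male libraries kept the sign of the 4 differences but not their calls. The fit takes the spread of the lone female libraries from the males. At an unadjusted p under 0.05 there were 4 receptors without FXR+/+ male 1, beside 633 of all 14836 genes tested. There was 1 without FXR+/+ male 2 (495 of 14838 genes), and there were 2 without FXR-/- male 2 (327 of 14866). Without FXR-/- male 1 there were 0 (98 of 14929 genes), and the lowest p was 0.0679, for Gipr. DESeq2 called 3 at an unadjusted p under 0.05, with Galr1 at 0.0799.

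Averaged over genotypes, no receptor differed by sex at an unadjusted p under 0.05, against 7.48% of all genes tested. The lowest was Ffar1, at -0.16 ± 0.08 (SE) on the log2 scale for male minus female, with an unadjusted p of 0.102. Leaving out FXR+/+ male 2 gave 1 such receptor, Gpr119 at -0.28 (unadjusted p of 0.0324 in edgeR), beside 1831 of all 14838 genes tested. Without FXR-/- female 1, which leaves 1 female library, Gipr stood at 0.49 and Galr1 at 0.47.

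Ratios of counts within a library need no scaling between libraries. The pairs were chosen with the counts known, so that the ratios are a description with no test, and 6 were computed. Glp1r over Gipr, the balance of the 2 incretin receptors, was 1.58, 1.28 and 1.49 in FXR+/+ and 1.94, 1.79 and 1.77 in FXR-/- libraries. The groups did not overlap in gene counts, and the ratio was higher in FXR-/- in all 3 same-numbered pairs. Of these counts, 13.1% for Glp1r and 29.9% for Gipr lay in the exon table. From summed exon counts the log2 fold change was -0.09 for Glp1r and -0.18 for Gipr, and the ratio was not computed from them. In its deepest listed exon Glp1r had 433, 355 and 588 counts in FXR+/+ and 520, 331 and 352 in FXR-/- libraries. Gipr had 434, 440 and 854 against 529, 310 and 527 in its own. Glp1r exceeded Gipr there only in FXR-/- male 1, so the separation is stated for gene counts only. Ffar1 over Gpr119 was 2.37, 2.53 and 1.86 against 2.77, 3.4 and 2.84, again without overlap.

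Adra2a over Galr1 was 4.32, 2.99 and 1.93 in FXR+/+ and 4.33, 5.71 and 5.54 in FXR-/- libraries, without overlap though level in the female pair. In this ratio a gene called higher before adjustment stands over one called lower, and Ffar1 over Gpr119 has a gene without overlap on top. The other 3 ratios, Sstr3 over Sstr2, Adra2a over Glp1r and Glp1r over Gcgr, overlapped.

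**Figure D4:**
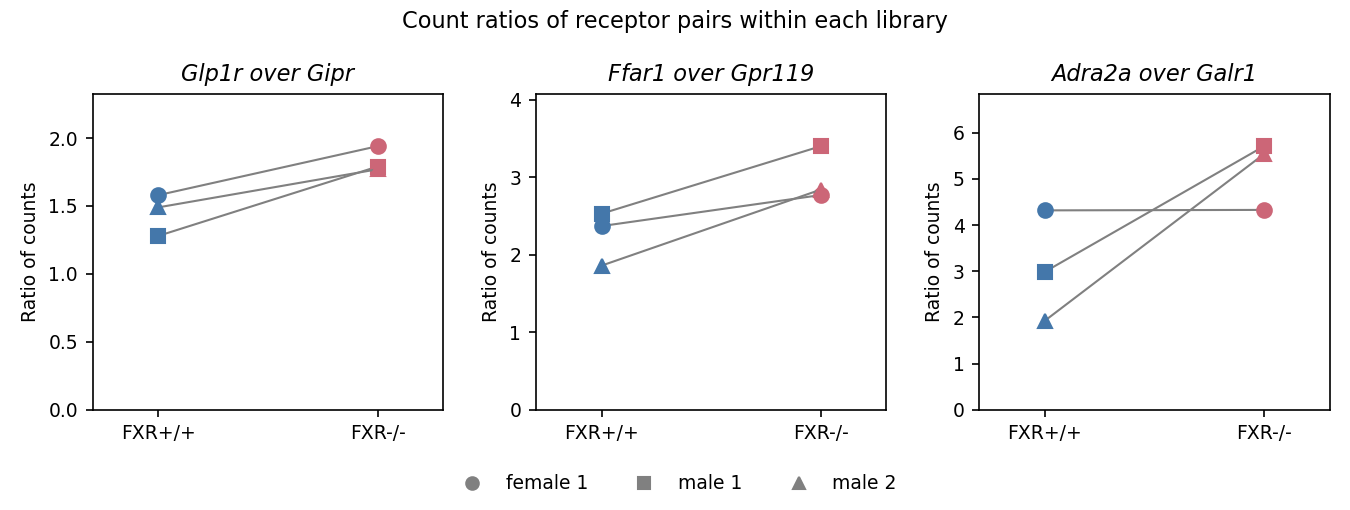
Ratios of raw gene counts of 2 receptor genes within each library (vertical axes from 0), with lines joining same-numbered FXR+/+ and FXR-/- libraries. In all 3 panels the FXR-/- libraries lie above the FXR+/+ libraries, from 1.77 up against 1.58 and below for Glp1r over Gipr.

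Counts of single exons were examined where each library had at least 50. Exons were numbered by ascending position, so that number 1 is the last exon of a minus-strand gene such as Galr1. In Galr1, exon 1 had 19.9, 23.3 and 30.9 CPM in FXR+/+ and 18.6, 14.9 and 19.3 in FXR-/- libraries, a ratio of means of 0.712. Its exon 3 had 10.6, 15.2 and 15.6 against 11.7, 11.5 and 11.4 CPM, a ratio of 0.834, with overlap. Both exons thus stood below 1, as the gene did.

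In Gipr the 3 exons deep enough stood at ratios of 0.891, 0.762 and 0.847, as the gene did at 0.856. In Glp1r exon 1 had a ratio of 1.05, near the gene's 1.08, and the last listed exon, number 13, one of 0.976, with overlap between genotypes in both. From summed exon counts the log2 fold change of Glp1r was -0.09, against 0.11 from gene counts. For Ffar1 and Adra2a the single exon is the gene count.

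The wider receptor families were described from lists of 112 other receptors, of which 65 were tested. At an unadjusted p under 0.05, 8 of the 65 were higher in FXR-/- islets (12.3%, against 6.18% of all genes) and 1 was lower (1.54%, against 4.15%). None had an adjusted p under 0.05. Their median log2 fold change was 0.178, with 51 positive and 14 negative, against 0.00844 over all genes tested. Many are low, and several, such as Aplnr, are known from vessels, whose markers were also higher in FXR-/- islets. The part of those cells in the receptor levels was not tested.

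In each list that follows, counts without the replicate block stand against 6.18% of all genes tested called higher and 4.15% called lower. Among class B hormone receptors, 1 of 10 tested was higher and 0 lower at an unadjusted p under 0.05. This was Crhr1, the receptor for corticotropin-releasing hormone, with a mean of 1.2 CPM in FXR+/+ islets and 2.63 CPM where FXR was missing (log2 fold change 1.15 ± 0.31, unadjusted p of 0.00673). Vipr1, the most abundant non-member of that list, had 85.4 and 84.6 CPM. Adcyap1r1, a receptor for the neuropeptide PACAP, had 3.59 and 6.39 CPM and was higher in FXR-/- in all 3 same-numbered pairs. Its unadjusted p was 0.0515 without the replicate block and 0.00413 with it (adjusted p of 0.144 in edgeR), so that the block gave 2 of 10 higher. Over all genes tested, the block called 9.83% higher and 6.23% lower at an unadjusted p under 0.05.

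In the lipid receptor list, 2 of 14 tested were higher and 0 lower. Beside Ffar1 this was Ffar2, the receptor for short-chain fatty acids, with 29.4, 29.6 and 36.5 CPM in FXR+/+ and 41.4, 35.8 and 46.4 CPM in FXR-/- libraries. The log2 fold change of Ffar2 was 0.37 ± 0.13 (SE) with an unadjusted p of 0.0231, and its groups overlapped only through 1 FXR-/- library below the highest FXR+/+ library. With the replicate block 4 of the 14 were higher. Gpbar1, the membrane receptor for bile acids, named after its values were seen, was not tested because it had 1 to 6 counts a library.

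Of the adrenergic and dopamine receptors only 3 of 13 in the table passed the filter. Adra2a was the 1 with an unadjusted p under 0.05, and Adrb1 had 1.58 and 2.41 CPM in FXR+/+ and FXR-/- islets with an unadjusted p of 0.352. Adra2b and Adra2c, the other receptors of the same class, named after their values were seen, had at most 9 and 10 counts in any library.

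The list of muscarinic, serotonin and purinergic receptors had 1 of 11 higher and 1 lower. The lower was P2ry1, a Gq-coupled receptor for ADP that is abundant in beta cells, with 116, 102 and 154 CPM in FXR+/+ and 73.0, 114 and 71.2 CPM in FXR-/- libraries (log2 fold change -0.54 ± 0.20, unadjusted p of 0.0321). The groups overlapped through FXR-/- male 1. The higher was P2ry2, at 0.629 and 1.29 CPM. Adora1, an adenosine receptor, had 44.8 and 43.7 CPM.

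Of 18 peptide receptors tested, 3 were higher and 1, Galr1, was lower. Avpr1b, the vasopressin receptor of pituitary and islet, had 9.93, 7.33 and 7.13 CPM in FXR+/+ and 12.7, 11.1 and 11.2 CPM in FXR-/- libraries. The groups did not overlap, and its unadjusted p of 0.0031 was close to that of Ffar1 (adjusted p of 0.316 in edgeR). The other higher receptors were Aplnr, at 1.71 and 2.84 CPM, and Avpr1a, at 0.567 and 1.27 CPM.

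Of 19 metabotropic and orphan receptors, 2 were higher and 0 lower. Casr, the calcium-sensing receptor, had 65.6, 82.2 and 71.2 CPM in FXR+/+ and 83.8, 94.7 and 94.3 CPM in FXR-/- libraries (log2 fold change 0.32 ± 0.08, unadjusted p of 0.00544). Adgrg1, an adhesion receptor abundant in islets, had 205, 206 and 209 against 231, 260 and 255 CPM. Neither pair of groups overlapped.

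The signalling genes behind the receptors were taken by list, with counts again set against 6.18% higher and 4.15% lower over all genes tested. None of 32 tested genes of Gs and cyclic AMP signalling had an unadjusted p under 0.05, and their median log2 fold change was -0.0008. Prkacb, a catalytic subunit of protein kinase A, came nearest with 506 and 436 CPM in FXR+/+ and FXR-/- islets (unadjusted p of 0.0672). Gnas, which encodes the Gs α subunit, had 1291, 1176 and 1169 CPM against 1415, 1636 and 1408 CPM, without overlap (unadjusted p of 0.0835). With the replicate block 1 of the 32 was higher and 1 was lower at an unadjusted p under 0.05.

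In the Gi and Go list, 2 of 15 were higher and 0 lower. Kcnj6, a subunit of the potassium channels that Gβγ opens, had 6.99, 7.63 and 6.34 CPM in FXR+/+ and 9.52, 9.10 and 9.17 CPM in FXR-/- libraries (log2 fold change 0.41 ± 0.14, unadjusted p of 0.018). Gng7, a Gγ subunit, had 2.65 and 3.94 CPM. Gnao1, the Go α subunit, had 442 and 453 CPM, and neither it nor Gng12 had an unadjusted p under 0.05.

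In the Gq and calcium list, 0 of 17 were higher and 2 were lower. Itpr2, an intracellular calcium release channel, had 34.2, 41.1 and 36.0 CPM in FXR+/+ and 25.5, 27.4 and 26.2 CPM in FXR-/- libraries, without overlap (log2 fold change -0.49 ± 0.09, unadjusted p of 0.000831). Its adjusted p was 0.225 in edgeR. The other was Prkcb, a protein kinase C, with 197 and 162 CPM.

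Of 23 regulators of receptor and G-protein activity, 4 were higher and 0 lower. Rgs3, which speeds the shut-off of Gi and Gq proteins, had 40.2, 45.1 and 43.9 CPM in FXR+/+ and 63.2, 61.6 and 56.0 CPM in FXR-/- libraries (log2 fold change 0.49 ± 0.09, unadjusted p of 0.000762, adjusted p of 0.225 in edgeR). Rgs8, of the same family, had 1.18 and 2.39 CPM. Ramp2, a partner of the calcitonin receptor-like receptor, had 7.38 and 9.44 CPM. Rgs2 spread widely, with 139, 212 and 214 CPM against 72.7, 215 and 72.4 CPM, and had an unadjusted p of 0.0795 without the replicate block and 0.00865 with it.

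Among ligands made in islets or pancreas, 4 of 12 were higher and 1 was lower. Gal, which encodes galanin, the ligand of Galr1, had 8.52, 12.9 and 5.84 CPM in FXR+/+ and 12.8, 26.5 and 16.1 CPM in FXR-/- libraries (log2 fold change 0.99 ± 0.32, unadjusted p of 0.0163, adjusted p of 0.43 in edgeR). Its groups overlapped only between FXR+/+ male 1 and FXR-/- female 1, and its level was higher in FXR-/- in each same-numbered pair. Gal and Galr1 thus stood in opposite directions before adjustment.

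Th, tyrosine hydroxylase, the first enzyme of catecholamine synthesis, was the lower ligand gene, with 61.4, 79.9 and 83.2 CPM in FXR+/+ and 50.7, 63.5 and 63.2 CPM in FXR-/- libraries (log2 fold change -0.33 ± 0.07, unadjusted p of 0.00208). Ddc, the enzyme after it, had 323, 265 and 265 against 332, 362 and 362 CPM. Gcg, which encodes glucagon and GLP-1, had 27050 and 29470 CPM, and Sst, the somatostatin gene and named after its values were seen, had 3882 and 4514 CPM, neither with an unadjusted p under 0.05.

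With libraries scaled by size alone, the medians of 3 lists turned negative, at -0.0146 for muscarinic, serotonin and purinergic receptors, -0.0619 for Gq and calcium signalling and -0.0839 for the regulators. That scaling moved the median of all genes to -0.0866. The medians of the other 5 receptor lists stayed positive, between 0.0204 and 0.371.

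**Figure D5:**
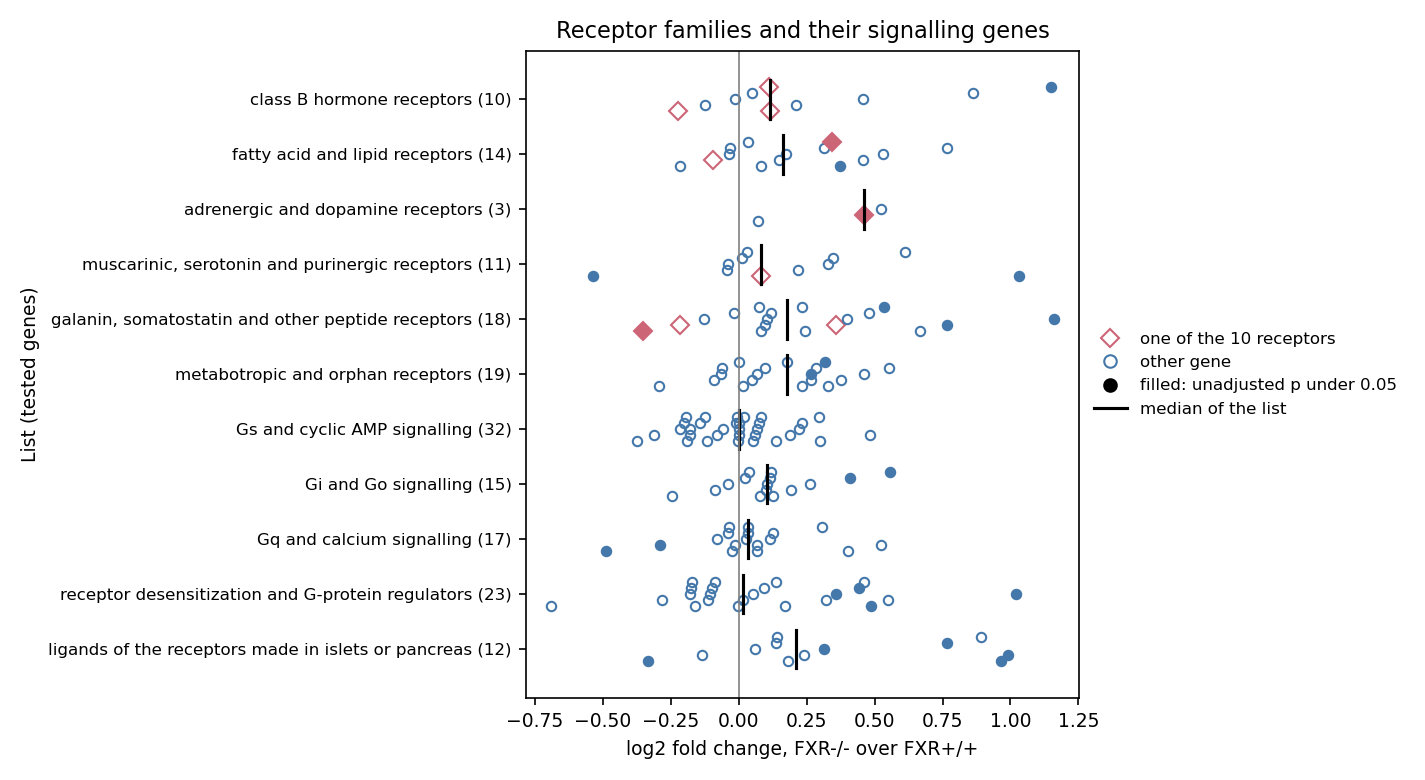
Log2 fold change of FXR-/- over FXR+/+ (horizontal axis) for the tested genes of 11 lists (rows, with the number tested). Diamonds are the 10 receptors, circles are other genes, filled symbols have an unadjusted p under 0.05 and black lines mark list medians. List medians lie between -0.0008 for Gs and cyclic AMP signalling and 0.461 for the 3 adrenergic receptors.

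The cell types that carry the receptors were checked by their markers. Summed beta cell markers ran from 196000 to 232000 CPM in FXR+/+ and from 188000 to 273000 CPM in FXR-/- libraries. Alpha cell markers ran from 22100 to 38300 and from 27400 to 38900, and delta cell markers from 3150 to 5210 and from 4250 to 5680 CPM. These 3 ranges overlapped between genotypes. Each sum was mostly hormone message, with means in FXR+/+ and FXR-/- libraries of 145600 and 163900 CPM for Ins2. They were 27050 and 29470 CPM for Gcg and 3882 and 4514 CPM for Sst. The overlap therefore speaks mainly for these genes and not for the number of cells. Of the 11 beta cell markers tested, 7 had a positive log2 fold change and 4 a negative one. Mafa, at 318.5 and 472.9 CPM, did not overlap. The receptors were also scaled to the summed counts of 9 beta cell markers other than the insulin genes. Most of that sum was Iapp, with means of 15060 CPM in FXR+/+ and 13720 CPM in FXR-/- libraries. Next was G6pc2, at 1786 and 1362 CPM, so the scaling follows mainly 1 gene. Ffar1 and Adra2a had no overlap between genotypes there, at log2 ratios of 0.457 and 0.548, and Galr1 stood at -0.249. Under that scaling 1366 of all genes tested were higher and 179 lower without overlap, against 1173 and 1077 under TMM.

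Over all genes tested, 6.18% were called higher and 4.15% lower at an unadjusted p under 0.05 without the replicate block. Of the 7 endothelial markers 6 were higher in FXR-/- islets at that threshold, as were 4 of 8 macrophage markers. None of 8 stellate and pericyte, 16 acinar, 6 delta cell, 3 PP cell or 9 alpha cell markers was, though 1 alpha cell marker was lower. Of the others, 2 of 11 beta cell, 2 of 5 ductal and 2 of 6 neural markers were higher. With the replicate block, 6 of 8 stellate and pericyte, 6 of 8 macrophage, 3 of 16 acinar and 3 of 5 ductal markers were higher, against the 9.83% of all genes tested called higher in that fit. No marker found in the table was at 0 in all libraries.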

How the data were processed

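Islet RNA-seq was analysed from 6 libraries, 3 of FXR+/+ and 3 of FXR-/- mice, grouped by the genotype and sex in the labels. The authors deposited whole-number counts per gene and per exon, without normalization. The submitters' processing notes name HISAT, and the counting rule, use of strand and annotation release are not given in the sources used here. Positions are GRCm38, and 86.7% of the deposited exons match GENCODE vM21. The authors' DESeq comparison of the genotypes (mean signal, log2 fold changes, p- and q-values) was not used.

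Genes were filtered with filterByExpr (minimum count 10, total 15), scaled by TMM, and fitted in edgeR 4.0.16 (R 4.3.3) with sex and genotype, without legacy dispersions. A quasi-likelihood test was run on 14619 genes with Benjamini-Hochberg adjustment, on 3 residual degrees of freedom. DESeq2 1.42.0, other scalings, filters and covariates, and single libraries left out were the alternatives. The script was tested on simulated data. Same-numbered libraries of the 2 genotypes deviated together (r = 0.373, 0.419 and 0.346, against -0.358 to 0.0628 for other pairs). The replicate numbers were therefore taken as pairs in the block, a choice made from these same data. The labels do not state that same-numbered libraries were paired. The exact permutation test used log2(CPM + 0.01).

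The receptors, gene lists, tests and ratios were chosen with earlier results of these data known. The text names the 10 receptors, Nr1h4 and, in each list, up to 3 other genes with the lowest p and up to 2 with the highest CPM. Of the other receptors listed, 9 had no row under the symbol used. Depth was 20629306 to 30139235 counts a library.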

Additional observations from a re-analysis of the deposited data

Results flagged for a closer look

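In an edgeR test of an interaction of genotype and sex, 4 receptors had an unadjusted p under 0.05, against 1.48% of all genes tested. The spread in that test comes from the male libraries, since each genotype has 1 female library, and sex cannot be told apart from that library. Without FXR-/- male 1, none of the 4 had an unadjusted p under 0.05. On the log2 scale, males minus females, the difference was -0.642 for Glp1r, -0.706 for Gipr, 0.639 for Adra2a and -0.576 for Galr1. The p adjusted over all genes was 1 for each. In the pair ratios both male pairs lay on the same side of the female pair for each of the 4. The 4 were chosen by the test on these same libraries, so this adds no support. The ratios were 1.45 in the female pair and 0.901 and 0.958 in the male pairs for Glp1r, and 1.19, 0.647 and 0.809 for Gipr. They were 1.02, 1.34 and 1.93 for Adra2a, and 1.02, 0.701 and 0.674 for Galr1. The library FXR+/+ female 1 was the lowest of its group for Glp1r, Gipr and Galr1 and the highest for Adra2a. Alpha cell markers were highest in the female libraries of both genotypes, at 38300 and 38900 CPM, and the part of this in the 4 differences was not tested.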

How the results depend on the processing

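No alternative gave a receptor an adjusted p under 0.05. With the replicate block, 3 receptors had an unadjusted p under 0.05, as without it, and the fit with that block changed no call of a receptor. At an unadjusted p under 0.05 it gave 36 genes in the lists against 25, beside 2348 against 1511 over all genes. At an adjusted p under 0.05 it gave 23 over all genes against 0, and DESeq2 gave 172. Library size alone left 0 receptors without overlap between genotypes, beside 11.5% of all genes tested. It gave 1 that differed by sex, Ffar1 (unadjusted p of 0.0128 in edgeR), beside 1778 of 14619 genes. Over all genes, 437 of 1507 unadjusted calls for genotype were then higher in FXR-/- islets, against 904 of 1511.

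Of 200 alternative values of the receptors' log2 fold changes, 188 kept their direction and 12 reversed, all for Glp1r, Gpr119, Chrm3 and Sstr2. The values are not independent, because males alone and leaving out either female library are nearly the same fit. Glp1r and Chrm3 reversed in each of these settings. Glp1r stood at -0.1024 in males alone and at -0.0932 from exon counts. Chrm3 stood at -0.0635 in males alone and at -0.0146 by library size. With a term for acinar RNA, Gpr119 stood at 0.0573 and Sstr2 at -0.0505. Leaving out single libraries gave ranges of -0.1022 to 0.2555 for Glp1r, -0.204 to 0.0651 for Gpr119, -0.0632 to 0.155 for Chrm3 and -0.0184 to 0.661 for Sstr2, and of -0.4583 to -0.0687 for Gipr, which kept its direction.

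Leaving out single libraries gave 1 to 4 receptors with an unadjusted p under 0.05. The 1 was without FXR-/- male 2 (1076 of all 14866 genes tested). The 4 were without FXR+/+ female 1 (1223 of 14891) or FXR-/- female 1 (1237 of 14784). Over all genes the calls ran from 863 of 14929 without FXR-/- male 1 to 2176 of 14836 without FXR+/+ male 1. Without overlap between genotypes there were 2 to 4 receptors. There were 4 without FXR+/+ female 1, FXR+/+ male 1 or FXR-/- male 1. The share of all genes without overlap was then 23.2%, 35.2% and 21.7%, against 15.4% with all libraries. With 1 male library left out, 0 or 1 receptor differed by sex, the 1 without FXR+/+ male 2 (1831 of 14838 genes). The interaction was refitted without single male libraries, a step chosen after seeing the data. An interaction could not be estimated without a female library. The widest interval was that of Sstr2.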

Other observations

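Beside Gal, Ddc and Th, 2 other ligand genes had an unadjusted p under 0.05, and they were named after their values were seen. Vip, which encodes vasoactive intestinal peptide, had 13.1 and 25.7 CPM on average in FXR+/+ and FXR-/- islets, without overlap, with an unadjusted p of 0.0212 and an adjusted p of 0.45 in edgeR. Npy, which encodes neuropeptide Y, had 12.1 and 21.2 CPM on average in FXR+/+ and FXR-/- islets, without overlap, with an unadjusted p of 0.0415 and an adjusted p of 0.474 in edgeR. The 6 neural and Schwann cell markers all had positive log2 fold changes, 2 of them with an unadjusted p under 0.05, and their summed level was 40.3 to 62.8 CPM in FXR+/+ and 62.8 to 64.6 CPM in FXR-/- libraries. Their part in the peptide levels was not tested. Galr2 and Galr3, the other galanin receptors, had 4.22 and 5.5 CPM and 26 and 27.9 CPM, with unadjusted p of 0.132 and 0.33, so that of the galanin receptors only Galr1 had an unadjusted p under 0.05. Whether Galr1 differed from Galr2 or Galr3 in its change was not tested.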
